A study of Mus musculus with 6 samples.

Results

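The complement genes described here are C3, C4b, Cfb, Serping1, C1s and C7, which were chosen by symbol from a set of 7 complement genes of fibroblasts. A row was found for 6 of the 7 among 26459 gene rows (26458 distinct symbols), and no row carried the symbol C1ra. A row named C1r, which RefSeq gives as an older name of C1ra, is reported beside the members and is not counted among them. RNA came from Thy1+HE- cells of C57BL/6 mouse hearts, sorted in a double pass 7 days after surgery. The groups were sham operation (3 libraries) and transaortic constriction (TAC, 3 libraries), in which the aorta is narrowed so that the left ventricle pumps against a higher pressure. Thy1 sits on the surface of many fibroblasts of the heart, HE is not spelled out in the labels, and no genetic change is named for either group. Neither the age and sex of the animals nor the number of mice behind a library is stated, so a p-value here weighs only the spread among libraries, which may be technical.

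Complement is a set of blood and tissue proteins that mark cells and debris for removal. It is started by the classical, the lectin or the alternative pathway. The classical pathway uses C1q with the proteases C1r and C1s, of which C1s cuts C4 and C2. In the alternative pathway factor B binds to activated C3. All routes meet at the cutting of C3, and C7 is one of the late components that build a pore in membranes. Most circulating complement is made in the liver, while fibroblasts, macrophages and other tissue cells make several components locally.

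In these cells the changes went in different directions along the cascade. The late component C7 fell to 0.222 of its sham level after TAC, and the central component C3 to 0.544. The classical protease C1s and its inhibitor Serping1 fell by less, to 0.685 and 0.721 of sham. Cfb was called higher, by 2.47-fold, in a comparison whose groups overlapped, and C4b was not called. Calls use an edgeR adjusted p under 0.05. Of 6 members, 4 were called lower and 1 higher, beside 10.4% called lower and 8.28% called higher among the 12612 genes tested. The median log2 fold change was -0.51 over the 6 members and 0.01 over all genes tested. For 4 of the 6 the groups did not overlap, beside 36.2% of all genes tested (18.5% lower and 17.7% higher in TAC). In sorted bulk cells, a smaller number of expressing cells and less RNA per cell cannot be told apart.

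**Figure D1:**
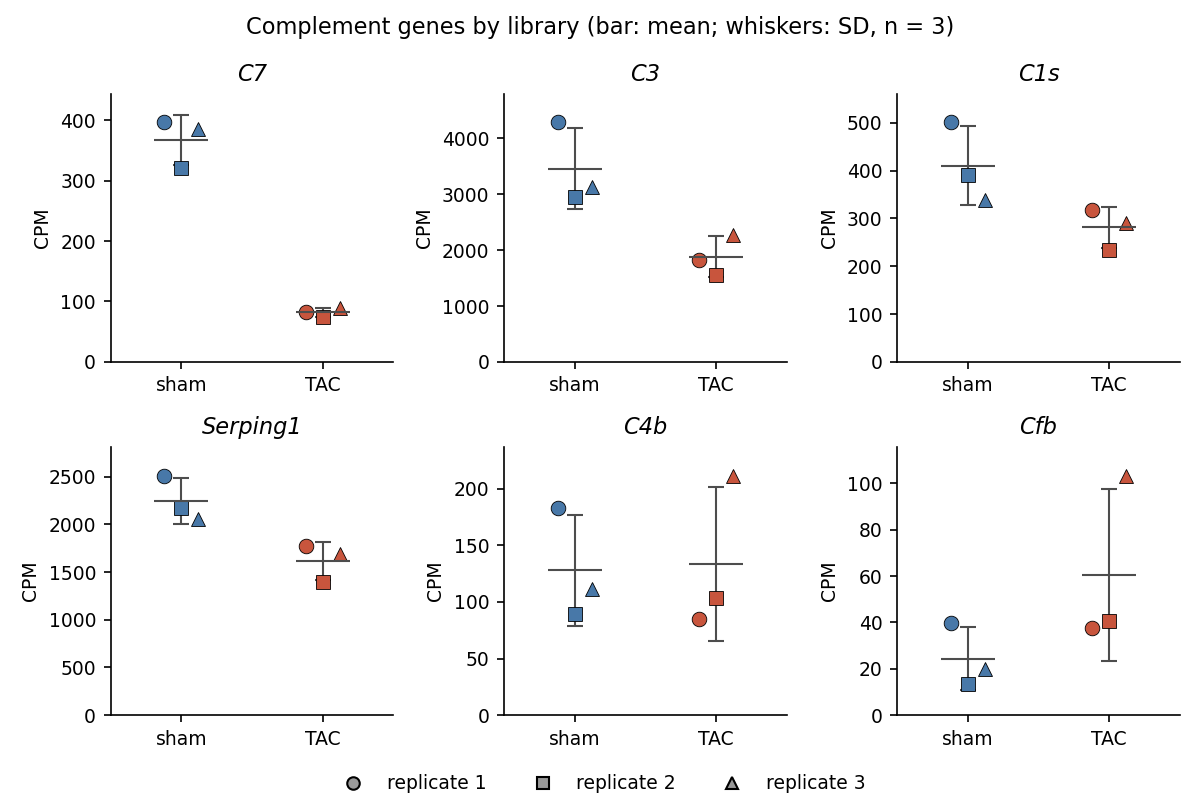
Level of each member in CPM (the read count scaled to a common library size; vertical axes, each from 0) in the 3 sham and 3 TAC libraries, with marker shapes for replicate numbers, a bar for the mean and whiskers for the SD. C7, C3, C1s and Serping1 lay lower in all TAC libraries than in any sham library, while the groups overlap for C4b and Cfb.

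Several of these genes have near-identical copies in the mouse genome, which bears on what a read count can show, so the stretches that tell the copies apart are shown first. C4b (chromosome 17, 34728139 to 34743902 in GRCm38.p6, minus strand) has the copy C4a (34809092 to 34823460), which RefSeq lists as a transcribed pseudogene. C1s, now C1s1 (chromosome 6, 124530344 to 124542392, minus strand), has the copy C1s2, and C1r, now C1ra (124512621 to 124523440, plus strand), has the copy C1rb. In GENCODE M21 transcripts, the coding part of C4b was 96.1% identical to C4a, that of C1s1 95.7% identical to C1s2 and that of C1ra 98.0% identical to C1rb. The 50 coding bases in which each pair differs most are printed 5′ to 3′, with capitals at the bases that differ between the copies.
C4b: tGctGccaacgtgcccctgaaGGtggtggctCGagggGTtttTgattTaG
C4a: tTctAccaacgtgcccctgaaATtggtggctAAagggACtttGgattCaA
C1s1: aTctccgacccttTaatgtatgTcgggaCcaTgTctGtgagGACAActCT
C1s2: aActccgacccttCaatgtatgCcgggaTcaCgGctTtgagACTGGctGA
C1ra: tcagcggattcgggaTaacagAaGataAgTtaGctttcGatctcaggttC
C1rb: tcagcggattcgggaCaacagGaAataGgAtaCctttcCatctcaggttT
These stretches hold 11, 14 and 8 differences, whereas the longest stretch without any difference ran to 433, 229 and 757 bases in the 3 pairs. Reads were 50 bases long, per the labels' protocols. Of all 50-base windows in the C4b transcript, 35.2% also occurred exactly in C4a. For C1s1 24.3% occurred in C1s2, and 39.0% in C1s2 or Gm16567. For C1ra 48.0% occurred in C1rb, and 50.8% in C1rb or Gm18840. No window of C3, Serping1 or C7 occurred in a transcript of another gene. For Cfb (chromosome 17, 34856374 to 34862514, minus strand), 81.4% of windows also lie in Gm20547, which GENCODE annotates across Cfb and C2 on the same strand. No row of that name was found among the report rows.

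The reads on the copies followed those on the members from library to library. C4a had 36.9%, 36.1% and 32.9% as many reads as C4b in sham libraries 1, 2 and 3, and 30.7%, 35.0% and 32.95% in TAC libraries 1, 2 and 3. C1rb, listed under a number, had between 44.6% and 49.8% of the reads of C1r in the 6 libraries. C1s2, also listed under a number, had between 14.4% and 19.3% of the reads of C1s. The sources used here do not say how reads that match both copies were assigned, so the level of C4b, C1s and C1r relative to their copies is uncertain. Summing each pair left the log2 fold change C4b at 0.03 and that of C1s at -0.53, and no member gained or lost its call.

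**Figure D2:**
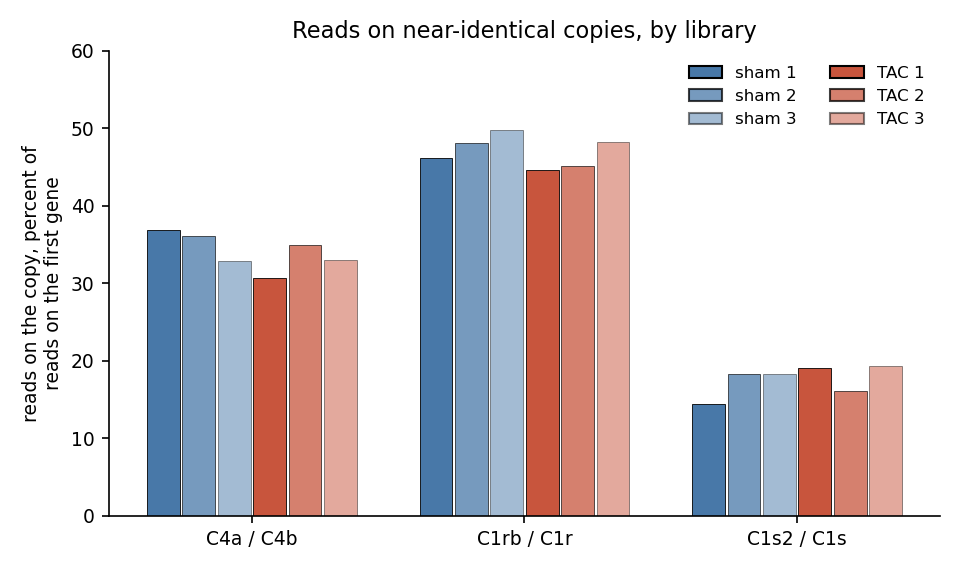
Reads on each copy as a percentage of reads on the gene it resembles (vertical axis), for C4a against C4b, C1rb against C1r and C1s2 against C1s. Each bar is 1 library. Within a pair the percentages lie close together across all 6 libraries, for example between 30.7% and 36.9% for C4a.

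C3 is cut to give the fragment that coats targets, and both the classical and the alternative pathway act through it. C3 (chromosome 17, 57203967 to 57228136, minus strand) was at 4286, 2954 and 3128 CPM in sham libraries 1, 2 and 3. In TAC libraries 1, 2 and 3 it was at 1814, 1557 and 2274 CPM. All sham libraries were above all TAC libraries, and the highest library of each group was sham replicate 1 and TAC replicate 3. The log2 fold change was -0.88 ± 0.18 (SE; edgeR adjusted p = 0.00343). The call held in each of the 18 alternatives run, with log2 fold changes from -1.03 to -0.70. These values rest on 5702 to 8560 reads per library.

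C7 binds the growing membrane attack complex and anchors it in a membrane. C7 (chromosome 15, 4987750 to 5063773, minus strand) was at 396.5, 320.6 and 385.9 CPM in sham libraries 1, 2 and 3. In TAC libraries 1, 2 and 3 it was at 83.1, 73.6 and 89.0 CPM. The groups were far apart relative to their spread, with a mean of 367.7 ± 41.1 CPM in sham and 81.9 ± 7.79 CPM in TAC (SD, n = 3 each). The log2 fold change was -2.17 ± 0.14 (SE; edgeR adjusted p = 6.15e-08), and it stayed between -2.27 and -2.09 in the 18 alternatives. C7 had the largest log2 fold change in size among the 6 members. Its reads were spread less evenly than those of C3, since the deepest base of the row was covered 5.31 to 8.25 times as deeply as the mean base, against 3.33 to 4.10 times for C3.

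C3 and C7 were the members whose fall held in every alternative, so the promoter sequences of these 2 genes are shown. They come from RefSeq (GRCm38.p6), run from 250 bases before to 50 bases after the annotated start, and read 5′ to 3′ on the gene's strand. C3 lies at chr17:57228087-57228386 and C7 at chr15:5063724-5064023, both on the minus strand. Capitals mark matches on either strand to the TATA box letters TATAAA, to the C/EBP letters TTGCNNCAA and to the STAT letters TTCNNNGAA. Motifs for IRF and NF-kB were searched as well and had no match in these windows.
C3: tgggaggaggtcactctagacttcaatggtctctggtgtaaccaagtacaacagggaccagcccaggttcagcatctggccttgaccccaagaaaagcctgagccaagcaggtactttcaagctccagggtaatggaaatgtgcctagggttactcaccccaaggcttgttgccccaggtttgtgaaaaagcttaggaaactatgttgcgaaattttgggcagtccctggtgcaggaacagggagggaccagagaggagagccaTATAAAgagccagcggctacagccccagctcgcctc
C7: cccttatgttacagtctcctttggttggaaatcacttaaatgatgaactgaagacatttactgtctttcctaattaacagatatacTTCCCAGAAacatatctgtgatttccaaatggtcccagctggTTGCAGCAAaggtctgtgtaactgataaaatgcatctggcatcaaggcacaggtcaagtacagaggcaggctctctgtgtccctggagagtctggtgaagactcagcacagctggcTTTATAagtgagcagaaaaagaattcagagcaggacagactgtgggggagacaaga
In the C3 window the match was to the TATA letters, at position 14 counted from the annotated start. The C7 window held the STAT letters at position -164, the C/EBP letters at position -122 and the TATA letters, on the other strand, at position -6. Among all 32851 promoter windows of the same length, 13.6% held the TATA letters, 8.30% the STAT letters, 2.08% the C/EBP letters, 3.44% the IRF motif and 1.20% the NF-kB motif. A match describes letters only, and no binding was measured. Promoter entries were matched for C3, C7, C1s1 and C1ra, and not for C4b, Cfb and Serping1.

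C1s is the protease of the first component that cuts C4 and C2. It was at 501.2, 390.6 and 339.3 CPM in sham libraries 1, 2 and 3, against 318.4, 234.9 and 290.2 CPM in TAC libraries 1, 2 and 3. The groups did not overlap, but the lowest sham and the highest TAC library were close. The log2 fold change was -0.55 ± 0.16 (SE; edgeR adjusted p = 0.0262). The call was lost without sham replicate 1 (-0.38, edgeR adjusted p of 0.115), without sham replicate 2 (-0.59, adjusted p of 0.0645) and without TAC replicate 2 (-0.43, adjusted p of 0.131).

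Serping1 encodes C1 inhibitor, which blocks C1r, C1s and the lectin pathway proteases. Serping1 (chromosome 2, 84765360 to 84775444, minus strand) was at 2513, 2172 and 2053 CPM in sham libraries 1, 2 and 3, and at 1777, 1396 and 1686 CPM in TAC libraries 1, 2 and 3. Every sham library was above every TAC library. The log2 fold change was -0.47 ± 0.15 (SE; edgeR adjusted p = 0.0428). The call was lost under upper quartile scaling (adjusted p of 0.0619) and in limma on log2 RPKM (adjusted p of 0.0547 and 0.0525). It was also lost without sham replicates 1, 2 or 3 (edgeR adjusted p of 0.0967, 0.0992 and 0.0600) and without TAC replicate 2 (0.201).

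No difference between the groups was detected in the proportion of the protease to its inhibitor. Per length, C1s stood at 12.2%, 10.95% and 10.1% of Serping1 in sham libraries 1, 2 and 3, and at 10.9%, 10.3% and 10.5% in TAC libraries 1, 2 and 3. The difference in the log2 ratio was -0.06, smaller than the SD of 0.14 between sham libraries (two-sided exact permutation p = 0.6, n = 3 each). The row C1r, the protease that activates C1s, was at 111.6 ± 16.1 CPM in sham and 83.2 ± 14.0 CPM in TAC (SD, n = 3 each), with overlapping groups. Its log2 fold change was -0.43 ± 0.16 (SE) and it was not called (edgeR adjusted p of 0.0713). Among 18 alternatives it was called only without TAC replicate 3 (-0.57, adjusted p of 0.0169).

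C4b encodes complement C4, the substrate of C1s. It was at 183.3, 89.1 and 111.6 CPM in sham libraries 1, 2 and 3, against 85.0, 103.8 and 211.7 CPM in TAC libraries 1, 2 and 3. The range within each group, 2.06-fold in sham and 2.49-fold in TAC, was larger than the difference between the group means of 128.0 ± 49.2 and 133.5 ± 68.4 CPM (SD, n = 3 each). The log2 fold change was 0.06 ± 0.29 (SE; edgeR adjusted p = 0.914), with an approximate 95% interval from -0.50 to 0.62. Its direction changed when a library was left out, with -0.43 without TAC replicate 3, -0.16 without sham replicate 2 and -0.04 without sham replicate 3.

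Cfb encodes factor B, the protease subunit of the alternative pathway enzyme that cuts C3. It was at 39.6, 13.5 and 19.8 CPM in sham libraries 1, 2 and 3, against 37.4, 40.5 and 103.4 CPM in TAC libraries 1, 2 and 3. Sham replicate 1 lay above TAC replicate 1, and TAC replicate 3 lay far above all others. The log2 fold change was 1.30 ± 0.38 (SE; edgeR adjusted p = 0.0230). The call was lost without TAC replicate 3 (0.68, edgeR adjusted p of 0.122), without sham replicate 2 (1.01, adjusted p of 0.125) and without sham replicate 3 (1.17, adjusted p of 0.0763). It was also lost in DESeq2 (adjusted p of 0.172), in the robust edgeR fit (0.202) and in limma on log2 RPKM (0.0608 and 0.0652). Its values rest on 79, 26 and 40 reads in sham and 122, 174 and 344 reads in TAC.

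**Figure D3:**
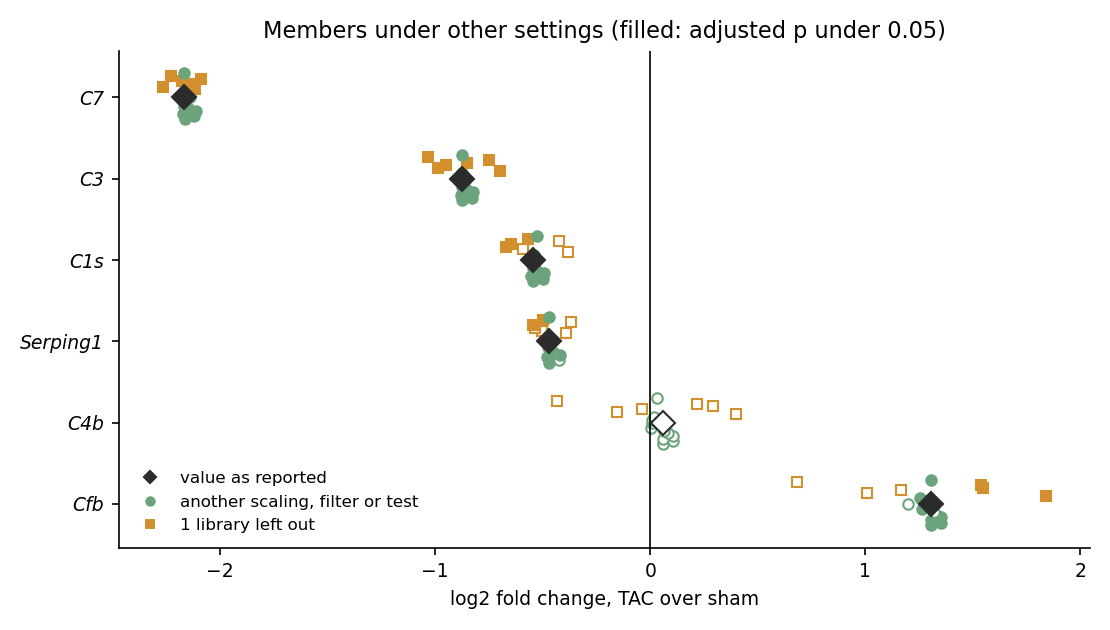
Log2 fold change of TAC over sham (horizontal axis) for each member as reported (diamond), under another scaling, filter or test (circles) and with 1 library left out (squares), filled where the adjusted p was under 0.05. C7 and C3 stay filled and apart from 0 throughout, C4b lies on both sides of 0, and Cfb stays above 0 with open symbols in 7 of 18 alternatives.

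The balance of factor B to C3 within a library does not depend on how libraries are scaled. Reads on Cfb were 0.923%, 0.456% and 0.634% of those on C3 in sham libraries 1, 2 and 3, and 2.06%, 2.60% and 4.55% in TAC libraries 1, 2 and 3. Each TAC library was above each sham library, and the ratio was 4.51-fold higher in TAC on the geometric mean. The difference in log2 ratio was 2.17, with SDs of 0.51 in sham and 0.59 in TAC (two-sided exact permutation p = 0.1, n = 3 each, the smallest p that 3 against 3 libraries allow). With 1 library left out it ranged from 1.85 to 2.43. The ratio of C4b to C3 was also higher in each TAC library than in any sham library, although C4b was not called. Per length it was 4.085%, 2.88% and 3.41% in sham libraries 1, 2 and 3. In TAC libraries 1, 2 and 3 it was 4.475%, 6.37% and 8.89% (two-sided exact permutation p = 0.1). A ratio shows that the genes changed unequally and not which of them moved.

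C2, the classical pathway counterpart of factor B, lies next to Cfb on the same strand, 87 bases away. C2 was at 14.6 ± 1.21 CPM in sham and 9.66 ± 4.49 CPM in TAC (SD, n = 3 each) and was not called (log2 fold change -0.59 ± 0.32; edgeR adjusted p = 0.215). On the other side Nelfe, listed as Rdbp and on the opposite strand, ends 1 base away and had 4 to 24 reads per library. The kit does not mark strand, so reads at these borders cannot be assigned by strand.

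Levels can be compared between genes only per length. In RPKM, the length-normalised read count (reads per kilobase, scaled to library size) that the authors computed, the order in sham was Serping1, C3, C7, C1s, C4b and Cfb. Serping1 was at 1275 ± 112 RPKM in sham and 914.8 ± 87.5 RPKM in TAC (SD, n = 3 each), and ranked 30th and 48th among the 26458 symbols. C3 was at 675.4 ± 127 and 366.9 ± 69.3 RPKM and ranked 71st and 185th. C7 and C1s, at 173.7 ± 16.7 and 141.7 ± 25.98 RPKM in sham, overlapped there. In TAC, C1s (96.7 ± 11.8 RPKM) was above C7 (38.6 ± 3.22 RPKM), and C7, C4b (24.96 ± 12.9 RPKM) and Cfb (24.8 ± 15.4 RPKM) overlapped. Cfb was the lowest member in sham, at 9.92 ± 5.34 RPKM. Together the 6 members took 0.769%, 0.601% and 0.603% of the gene-row reads in sham libraries 1, 2 and 3, and 0.395%, 0.348% and 0.462% in TAC libraries 1, 2 and 3.

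Within groups, the libraries were ordered in a similar way for several members. Sham replicate 1 was the highest sham library for all 6 members, and TAC replicate 3 was the highest TAC library for C3, C4b, Cfb and C7. TAC replicate 1 was the highest for Serping1 and C1s. A list of 16 macrophage markers, of which 3 are the C1q genes, summed to 98.1, 26.4 and 34.2 CPM in sham libraries 1, 2 and 3 and to 108.9, 109.7 and 318.5 CPM in TAC libraries 1, 2 and 3. Its highest libraries were thus the same, sham replicate 1 and TAC replicate 3. Of its 9 tested genes 5 were called higher and none lower, against 8.28% of all genes called higher and 10.4% lower. The largest parts of the sum were Lyz2, listed as Lyzs (mean 14.1 CPM in sham and 68.3 in TAC), and Cd74 (11.9 and 37.8 CPM). The leukocyte gene Ptprc had 0 reads in the sham libraries and 7, 9 and 17 reads in TAC. Among the genes that were not tested, Cd163 (1.51 and 1.38 CPM) and Fcgr1 (0.345 and 0.278 CPM) had lower means in TAC, with overlapping groups. Without TAC replicate 3 the log2 fold change of Cfb was 0.68, against 1.30 with it. That library was the highest in Cfb itself, so leaving it out lowers this value whatever its macrophage sum. The part of macrophage RNA in the values of Cfb and C4b was not tested.

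**Figure D4:**
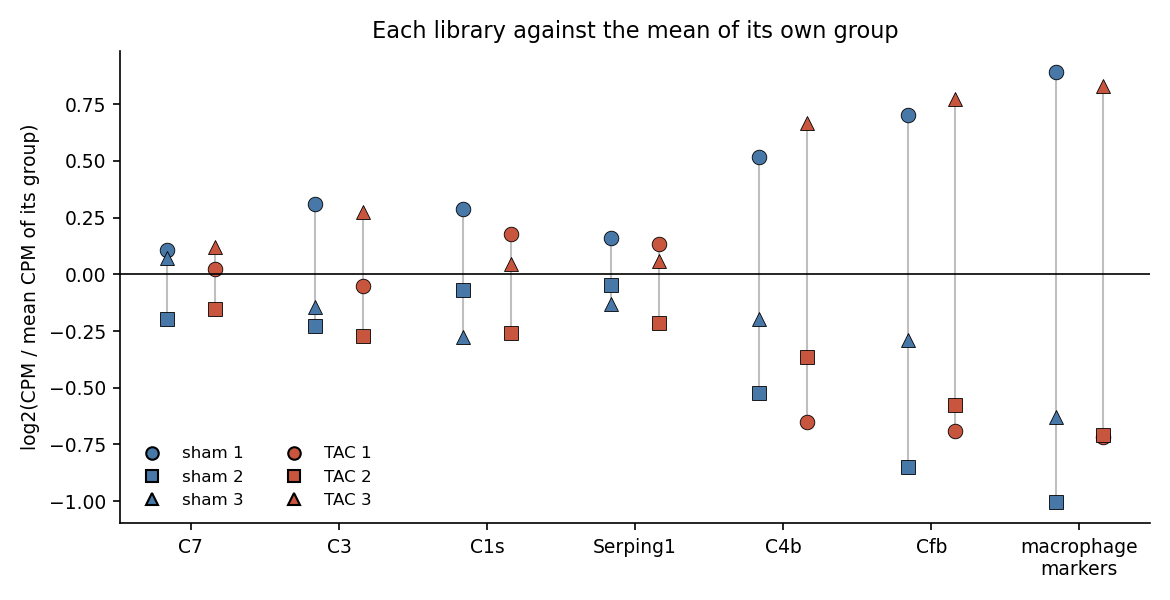
Each library's level relative to the mean of its own group (vertical axis, log2 of CPM over the group mean) for the 6 members and the summed macrophage markers, with colours for groups and shapes for replicate numbers. Sham 1 and TAC 3 are the highest points of their groups for C3, C4b, Cfb, C7 and the macrophage markers, and the spread is smallest for Serping1 and C7.

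Marker lists of other cell types differed in their direction, and called counts are read beside 8.28% of all genes called higher and 10.4% lower. Fibroblast markers were present throughout, with none of the 12 rows at 0. They summed to 24790 to 28940 CPM in sham and 30190 to 32810 CPM in TAC. Of the 12, 4 were called higher (Col1a1, Col1a2, Mfap5 and Fstl1) and 5 lower (Pdgfra, Dcn, Tcf21, Ddr2 and Gsn). Pericyte markers (8 rows) summed to 2331 to 3833 CPM in sham and 754.5 to 1955 CPM in TAC, and 3 of 8 were called lower. Most of that sum was Abcc9 (mean 1193 CPM in sham and 468.7 in TAC) and Rgs5 (1154 and 645.4 CPM). Abcc9 was called lower and Rgs5 was not. The median log2 fold change of the 8 was -0.75, and that of Mcam was -0.08. Epicardial and mesothelial markers (12 rows) summed to 424.1 to 655.3 CPM in sham and 379.5 to 474.2 CPM in TAC, so the groups overlapped (two-sided exact permutation p = 0.5, n = 3 each), and 1 was called higher and 3 lower of 10 tested. Most of that sum was 2 genes that moved in opposite directions. Muc16 (mean 203.8 CPM in sham and 61.6 in TAC) was called lower, and Aldh1a2 (160.6 and 281.5 CPM) was the gene called higher. The median log2 fold change of the 10 was -0.67. Smooth muscle sums (373.0 to 913.3 and 461.9 to 508.5 CPM) and cardiomyocyte sums (143.7 to 337.3 and 203.5 to 413.2 CPM) overlapped too. Schwann cell markers (6 rows) summed to 92.1 to 107.6 CPM in sham and 29.8 to 48.2 CPM in TAC, and 3 of 4 tested were called lower. Kcna1 alone held a mean of 59.6 CPM of that sum in sham and 14.7 CPM in TAC. Endothelial markers (9 rows) summed to 212.8 to 276.8 CPM in sham and 151.1 to 170.5 CPM in TAC, but most of that sum was Tek, at 194.7 ± 4.72 and 95.1 ± 8.78 CPM (SD, n = 3 each). Tek was called lower, the only call among 5 tested genes, whose median log2 fold change was 0.13. Cdh5 (9.93 ± 4.38 and 18.4 ± 4.69 CPM) and Vwf (1.52 ± 0.88 and 4.02 ± 3.03 CPM) were higher in each TAC library than in any sham library. Both margins were narrow. Cdh5 was at 13.5 CPM (58 reads) in TAC replicate 2 against 13.39 CPM (27 reads) in sham replicate 3. Vwf was at 2.10 CPM (9 reads) in TAC replicate 2 against 2.07 CPM (4 reads) in sham replicate 2. Of all genes tested, 17.7% were higher in TAC without overlap. Kdr had a lower mean in TAC (19.25 ± 16.9 and 10.65 ± 3.66 CPM) and was not called. The groups overlapped for Kdr and for the remaining genes of the list. Cdh5 was not called (edgeR adjusted p of 0.0648) and Vwf did not pass the low-count filter. Liver cells, the main source of circulating complement, left little trace, with 8 markers summing to 2.59 to 33.7 CPM and Alb1, Ttr and Fgb at 0 reads in every library. The part of these other cells in the falls of the members was not tested.

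Other complement genes were read from lists of 50 genes, of which 49 had a row and 20 were tested. Of these 20, 3 were called higher and 5 lower, beside 8.28% and 10.4% of all genes tested, and their median log2 fold change was -0.36. The lower genes described here are the regulators Cd55, Cd55b and Vtn and the lectin Colec11. The 3 higher genes were C1qb, C1qc and the receptor C3ar1, and 2 of them belong to the macrophage list above.

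**Figure D5:**
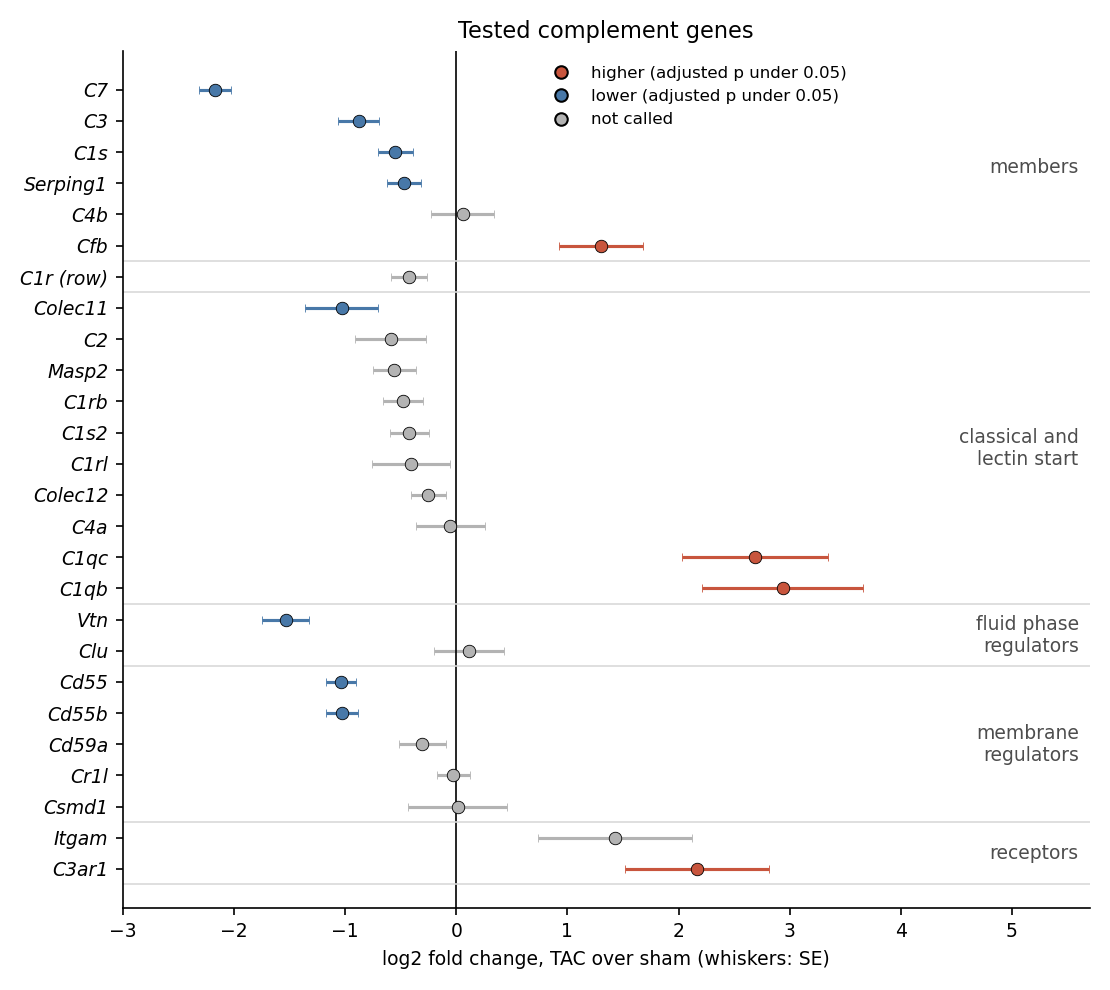
Log2 fold change of TAC over sham with its SE (horizontal axis) for the 6 members, the row C1r and other complement genes tested, grouped by role and coloured by call. C7 and Vtn lie furthest to the left, while C1qb and C1qc lie furthest to the right with wide whiskers.

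Regulators that fell protect host cells or fluid from complement. Cd55 encodes a membrane protein that speeds the decay of the enzymes that cut C3. It was at 583.8 ± 54.5 CPM in sham and 284.6 ± 26.5 CPM in TAC (SD, n = 3 each; log2 fold change -1.04 ± 0.14 SE, edgeR adjusted p = 6.18e-05). Its paralog Cd55b, listed as Daf2, was at 147.3 ± 6.72 and 72.2 ± 10.2 CPM (log2 fold change -1.03 ± 0.14), and reads may be split between the 2. Vtn encodes vitronectin, which binds the late complex, and was at 65.6 ± 3.97 and 22.5 ± 7.26 CPM (log2 fold change -1.53 ± 0.21; edgeR adjusted p = 7.95e-05). Vtn is also in the pericyte list, whose sum was lower in every TAC library. The falls of Cd55, Cd55b and Vtn kept their calls in all 18 alternatives.

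Other regulators were not called. Cr1l, listed as Crry, is a rodent inhibitor of the enzymes that cut C3, and was at 71.6 ± 10.8 CPM in sham and 70.4 ± 2.80 CPM in TAC (SD, n = 3 each). Its log2 fold change was -0.03 ± 0.15, with an edgeR adjusted p of 0.926. Clu encodes clusterin, which binds the late complex. Clu was at 40.0 ± 24.99 and 43.4 ± 13.8 CPM, with the highest values again in sham replicate 1 and TAC replicate 3. Cd59a, which blocks pore formation, was at 26.2 ± 5.28 and 21.1 ± 3.22 CPM (edgeR adjusted p of 0.338).

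The genes that were called higher in the other lists had few reads. C1qb, a chain of C1q, had 5, 4 and 1 reads in sham libraries 1, 2 and 3 and 19, 25 and 95 reads in TAC libraries 1, 2 and 3 (log2 fold change 2.94 ± 0.72; edgeR adjusted p = 0.00952). C1qc had 5, 0 and 1 reads in sham and 20, 18 and 34 in TAC (2.69 ± 0.66, adjusted p of 0.00897). C3ar1, the receptor for the C3a fragment, had 6, 1 and 3 reads in sham and 13, 19 and 50 in TAC (2.17 ± 0.65, adjusted p of 0.0273). These fold changes are imprecise at such depth. The calls of C1qb and C3ar1 were lost in limma voom (adjusted p of 0.0650 and 0.0738). That of C1qb was also lost in the robust fit (0.0890), and that of C1qc without sham replicate 2 (0.0515). C3ar1 was further lost in limma on log2 RPKM (0.0596 and 0.0532) and without sham replicate 2 (0.126) or 3 (0.0808). C3ar1 did not enter the test without TAC replicate 1, 2 or 3, nor did C1qc without TAC replicate 1 or 3. For C1qb the log2 fold change ranged from 1.77 (without TAC replicate 3) to 3.33 over the left-out libraries. That of C1qc was 4.52 without sham replicate 1 and 2.13 without sham replicate 2, and that of C3ar1 was 2.87 without sham replicate 1. In the same lectin and classical list Colec11, a soluble lectin, fell from 18.5 ± 4.77 to 8.89 ± 4.203 CPM (log2 fold change -1.03 ± 0.33; edgeR adjusted p = 0.0396). That call was lost without TAC replicate 3 (-0.71, adjusted p of 0.0941), without sham replicate 2 (0.141) or 3 (0.127), and in limma on log2 RPKM (0.0526 and 0.0605).

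Of the 17 listed classical and lectin genes, 10 were tested and 7 of these were not called, among them Masp2 and Colec12. Masp1 did not pass the low-count filter, with 0 reads in each sham library and 12, 8 and 1 in TAC. Without that filter Masp1 was called higher (log2 fold change 5.50, edgeR adjusted p = 0.00567). Masp2, a lectin pathway protease, had 48 to 62 reads per library in sham and 64 to 77 in TAC, or 28.1 ± 4.04 and 19.1 ± 1.16 CPM (SD, n = 3 each; log2 fold change -0.56 ± 0.19, edgeR adjusted p = 0.0566), with no overlap between groups. Colec12, a membrane lectin, was at 139.8 ± 28.9 and 117.7 ± 9.47 CPM (-0.25 ± 0.16, edgeR adjusted p of 0.289), with overlapping groups.

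Late and alternative pathway genes other than the members were barely detected. Of 6 other late components none was tested, 4 had under 3 reads in every library, C8g had 4 reads in TAC replicate 1 only and C5, listed as Hc, had at most 6. C6 and C9, which lie on chromosome 15 as C7 does, had 0 reads in every library, where 3 reads would be 0.713 to 1.57 CPM. C7 was the only late component listed here with more than 6 reads in a library. Of the alternative pathway, Cfd, the protease that cuts factor B, had at most 2 reads, and Cfp, which encodes properdin, between 4 and 13. The C5a receptor C5ar1 did not pass the low-count filter, with 4, 0 and 0 reads in sham and 13, 6 and 43 in TAC. Without that filter it was called higher (log2 fold change 3.10; edgeR adjusted p = 2.31e-05), and when each sham library was left out in turn the log2 fold change was 7.14, 2.51 and 2.49 (edgeR adjusted p of 0.0295, 0.148 and 0.126).

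Receptors and transcription factors that are known to act on complement genes were read, with the feedback inhibitor Socs3, from a list of 20 genes, all tested. Of these 1 was called higher and 9 lower, beside 8.28% and 10.4% of all genes, and their median log2 fold change was -0.47. Socs3, a feedback inhibitor of cytokine signalling, fell from 550.6 ± 28.4 to 204.8 ± 12.9 CPM (SD, n = 3 each), a log2 fold change of -1.43 ± 0.13 (SE; edgeR adjusted p = 1.44e-06). Il6ra, which encodes the receptor chain for interleukin 6, fell from 66.3 ± 8.90 to 17.4 ± 2.73 CPM (-1.94 ± 0.19, adjusted p of 2.20e-06). Cebpd, a transcription factor of the acute phase response, fell from 237.5 ± 10.1 to 100.1 ± 20.1 CPM (-1.25 ± 0.15, adjusted p of 2.76e-05). Irf1, an interferon-induced transcription factor, fell from 63.8 ± 12.5 to 35.0 ± 3.73 CPM (-0.87 ± 0.17, adjusted p of 0.00255). The gene called higher was Ifngr2, a chain of the interferon gamma receptor (0.66 ± 0.17, adjusted p of 0.0113).

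Genes with the pattern closest to C3 and to Cfb were found by the root mean square difference of log2 CPM, each gene centred on its own mean over the 6 libraries, among 6743 genes with a mean of at least 20 CPM. For C3 the 5 closest were Rtp4, Gbp2, Gda and 2 loci listed by number, at differences of 0.15 to 0.16, against a median of 0.53 over all genes compared. Gbp2, an interferon-induced GTPase, was at 104.1, 71.0 and 79.4 CPM in sham libraries 1, 2 and 3 and at 44.8, 47.0 and 47.2 CPM in TAC. For Cfb the 5 closest were Cd74, Hist1h2be, Rsad2 and 2 loci listed by number, at 0.37 to 0.39, against a median of 0.94. Cd74, the invariant chain of antigen-presenting cells, was at 23.0, 3.63 and 8.93 CPM in sham libraries 1, 2 and 3 and at 19.6, 23.5 and 70.4 CPM in TAC libraries 1, 2 and 3. Cd74 is in the macrophage list. It was highest in sham replicate 1 and TAC replicate 3, as Cfb was, but it was selected for its likeness to Cfb over these libraries. The shared order is therefore no separate observation. These distances describe 6 libraries that fall into 2 groups.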

How the data were processed

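A report of 26459 gene rows was deposited for each library. Per the file headers, NextGENe 2.3.3 wrote it. The read counts per gene row are deposited as whole numbers. The deposited RPKM divide them by the row's length and by a library total that was 98.7% to 98.9% of the gene-row reads. The deposited reports also give read depth per base (coverage), its mean and its highest value. The submitters' processing notes name mm10 and Partek 6.6 without a role. The annotation and the treatment of reads with several matches are not given in the sources used here.

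Gene-row reads summed to 1909337 to 2056097 per library in sham and 3351479 to 4207312 in TAC. The share of matched reads on gene rows was 25.4% to 34.1% in sham and 38.7% to 43.2% in TAC. Sham and TAC lay apart on the first principal component (55.7% of variance). Libraries of the same group were never duplicates (chi-square over its degrees of freedom, 3.38 to 14.1). Floors of 3 reads cover counting error only.

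Counts were analysed in R 4.3.3 with edgeR 4.0.16 (filterByExpr, TMM scaling, quasi-likelihood test, two-sided, Benjamini-Hochberg over 12612 genes). Calls required an adjusted p under 0.05. Standard errors derive from the F statistic. CPM are on TMM library sizes. Alternatives used DESeq2 1.42.0, limma 3.58.1 (voom, and trend on log2 of RPKM plus 1 or 0.1), other scalings and filters, a robust fit and leaving out each library. The steps were tested on simulated data. Older symbols were matched through names set in the gene lists, and otherwise through RefSeq (GRCm38.p6), the assembly mm10 names. Windows were searched in GENCODE M21 transcripts. Plots used matplotlib 3.10.9.

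The members and gene lists were chosen with earlier results of these data known. The named genes were all members, the called genes of the other complement lists, the 2 highest tested genes of a list with none called, the 4 smallest adjusted p of the receptor and factor list, and the 5 closest patterns for C3 and for Cfb. Genes outside that rule were named after their values were seen. These include Cr1l, Clu, Cd59a, Masp1, Masp2, Colec12, C5ar1, Ifngr2 and those named as undetected. From the marker lists they include Tek, Cdh5, Vwf, Kdr, Abcc9, Rgs5, Mcam, Kcna1, Muc16, Aldh1a2, Ptprc, Lyz2, Cd163, Fcgr1 and the called fibroblast markers. A called gene of the other complement lists is counted there but not reported here. Summing copies was chosen after seeing the data.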

Additional observations from a re-analysis of the deposited data

How the results depend on the processing

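Over 18 alternatives, C3 and C7 kept their direction and call, and Cfb, Serping1 and C1s kept their direction. Cfb was not called in DESeq2 (log2 fold change of 1.32), the robust edgeR fit (1.30) or limma on log2 RPKM with a pseudocount of 1 or 0.1 (1.20 and 1.28). Under these 4 the number of members called higher was 0. Serping1 was not called under upper quartile scaling (-0.43) or in limma on log2 RPKM (-0.48 with either pseudocount). The cause was not tested. Leaving out each library in turn gave log2 fold changes of 0.68 to 1.84 for Cfb, -0.54 to -0.37 for Serping1, -0.67 to -0.38 for C1s and -0.43 to 0.40 for C4b. The count of members called lower then ranged from 2 (without sham replicate 1, sham replicate 2 or TAC replicate 2) to 4 and of members called higher from 0 to 1. The count of other complement genes called higher was 6 with no low-count filter, where more genes are tested, and 0 with at least 10 CPM in 3 libraries, where these low genes are left out. It was 1 (without sham replicate 2, TAC replicate 1 or TAC replicate 3) to 5 (without sham replicate 1). Over all genes, 2353 were called, and 1454 (without sham replicate 2) to 2261 when each library was left out. The 1044 called higher became 1579 with no filter and 571 to 997 with a library left out, lowest without sham replicate 2 (571) and without sham replicate 3 (683). The log2 ratio of TAC to sham ranged from -0.45 to 0.30 for summed smooth muscle markers and from -0.23 to 0.50 for cardiomyocyte markers when each library was left out.

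Same-numbered libraries shared only a number: the correlations of their deviations from the group means were 0.08, 0.03 and -0.09 for numbers 1, 2 and 3. With the replicate number as a block, 2346 genes were called, 4 members lower and 1 higher as without it. The depth in sham limits genes such as C1qb and C3ar1, with at most 6 reads there.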
